A study of Mus musculus with 24 samples.

Results

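Autophagy, mitophagy and lysosome genes are described here in the left ventricle of mice whose cardiomyocytes were made to lack the histone chaperone HIRA. The 46 genes were chosen by name and function, from the kinases that start an autophagosome to the enzymes that digest its contents, and every probe that carried one of their current names or synonyms was taken. Probes were found for 44 of the 46 genes, 50 probes in all, among 17742 named genes on the array. Gabarapl2 had no probe under its names and was not analysed here, and Tfeb was found through its older name Tcfeb.

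RNA came from the free wall of the left ventricle of 4 control and 4 Hira CKO mice aged 6 weeks on a C57BL6/J;129S1/SvImJ background, with 3 single-colour arrays for each mouse. Control mice were aMHC-cre Tg/+; Hira flox/+ and Hira CKO mice were aMHC-cre Tg/+; Hira flox/-. Both groups therefore carried the Cre transgene and, per the methods, a Rosa26 YFP reporter allele. The transgene acts in cardiomyocytes, so that fibroblasts, endothelial cells and macrophages of a Hira CKO heart kept the floxed copy of Hira and lacked the other, while cardiomyocytes of a control heart had the floxed copy removed and kept the other. Scarred tissue was avoided at dissection, and the labels do not state sex.

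Autophagy encloses cytoplasm, protein aggregates or whole organelles in a double membrane and delivers them to lysosomes, where acid hydrolases break them down. A kinase complex around ULK1 or ULK2 starts the process, a lipid kinase complex around Beclin 1 marks the membrane, and an enzyme chain attaches small proteins of the ATG8 family to it. In the heart this pathway clears damaged mitochondria from cells that are hardly ever replaced, and inherited loss of lysosomal proteins such as LAMP2 or acid α-glucosidase causes cardiomyopathy in people.

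The deposited values were linear intensities that the authors had scaled to 1 median, 513.2 on each of the 24 arrays, so a change shared by all genes would not show. Hira itself had intensities of 208.8, 203.3, 250.2 and 253.8 in control mice 1, 2, 3 and 4 (numbered here in the order of the files), and of 228.2, 205.3, 200.04 and 167.5 in Hira CKO mice 1, 2, 3 and 4. The groups overlapped (log2 fold change −0.20, adjusted p = 0.282 from limma), and since the sources used here do not say where this probe lies relative to the deleted exon, the value does not check the genotype. All 5 cardiomyocyte markers with a probe (Tnnt2, Tnni3, Actc1, Pln and Actn2, of 10 listed) were bright in every mouse, and none passed the test. The order of mice given for Hira is kept for every gene below, a mouse's value is the geometric mean of its 3 arrays, and means ± SD and the standard errors (SE) of fold changes are over mice. The 3 arrays of a mouse differed by a median SD of between 0.08 and 0.20 on the log2 scale, depending on the gene, and no value of the 50 probes was under 1.

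The share of these genes that changed was close to that of all genes, so the counts say nothing particular to the list. At an adjusted p under 0.05 over all genes, 2 of the 44 rose (4.55%, beside 4.94% of all genes) and 4 fell (9.09%, beside 9.65% of all genes), and 38 did not pass the test. The genes that rose were the protease genes Ctsk and Ctsl, and the genes that fell were the protease gene Ctsd, the mitochondrial kinase gene Pink1 and the initiation genes Ulk2 and Rb1cc1. All 4 Hira CKO mice lay above all 4 control mice in 3 genes (6.82%, beside 7.78% of all genes) and below them in 7 (15.9%, beside 15.6%). At an unadjusted p under 0.05, 4 of the 44 were higher and 12 lower, where 9.74% and 26.8% of all genes were, 36.6% in all. The median log2 fold change was −0.09 over the 44 genes and −0.14 over all genes. The order of these medians depended on the normalization, as given below. In whole tissue, fewer cells of a type and less RNA per cell cannot be told apart.

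**Figure D1:**
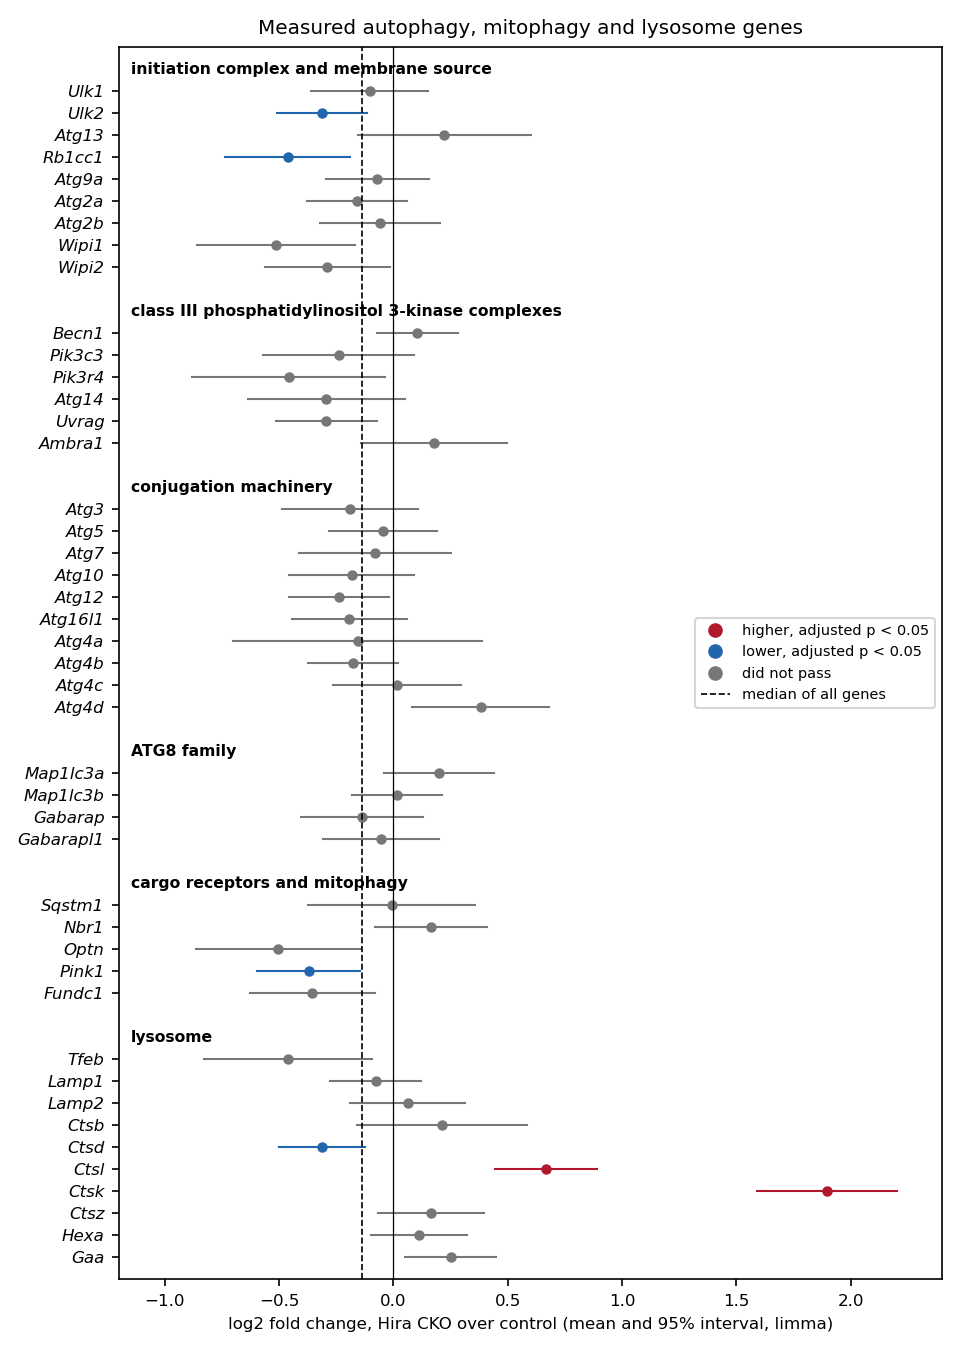
Log2 fold change of Hira CKO over control, with 95% intervals from limma, for the 44 measured genes ordered by role (n = 4 mice per group), with genes that rose in red, genes that fell in blue, the rest in grey and a dashed line at the median of all genes. Ctsk lies at 1.90 and Ctsl at 0.67, while the 4 genes that fell lie between −0.46 and −0.31.

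The calls of lower genes depended on the scaling of the arrays and on single mice. Quantile normalization moved the median of all genes from −0.14 to −0.02, and that of the 44 genes from −0.09 to −0.07. It then called 4 of the 44 genes higher (Ctsk, Ctsl, Gaa and Atg4d) and 1 lower (Pink1). Of all genes, 7.05% were called higher and 5.48% lower. Cyclic loess normalization called the same 5 genes, where 7.14% of all genes were called higher and 4.88% lower. Its medians were −0.05 for the 44 genes and −0.01 for all genes. The 44 genes thus had the lower median after both normalizations, and the higher one as deposited. When each mouse was left out in turn, 2 genes remained higher every time, Ctsk and Ctsl, and between 0 and 3 were lower. In the same fits the share of all genes called lower ran from 2.84% without control mouse 3 to 20.1% without Hira CKO mouse 1, where 3 of the 44 (6.82%) were lower. Among the genes called lower in these fits were Optn, without Hira CKO mouse 2, and Atg14, without control mouse 4, which did not pass with all 8 mice. None was lower without control mouse 1, control mouse 3 or Hira CKO mouse 3.

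**Figure D2:**
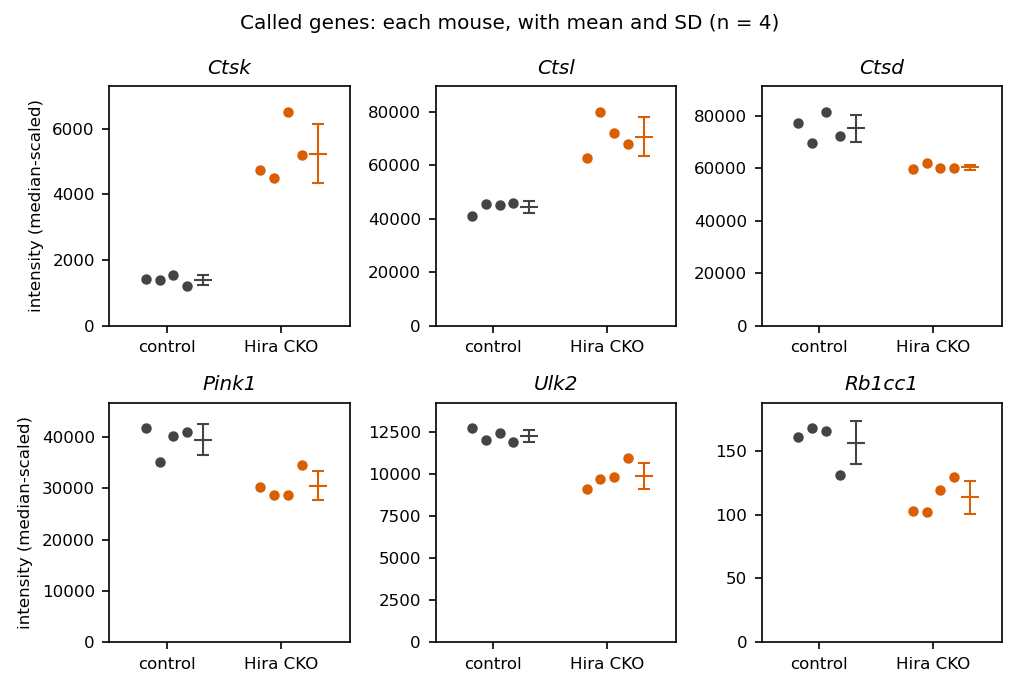
Intensity of each mouse (points, mean of 3 arrays on the log2 scale) for the 6 genes that passed the test, with control mice in grey, Hira CKO mice in orange and bars for the mean ± SD. The groups do not overlap in any of the 6, with the widest gap in Ctsk and the narrowest, as a ratio, in Rb1cc1, where control mouse 4 at 131 lies next to Hira CKO mouse 4 at 129.3.

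**Figure D3:**
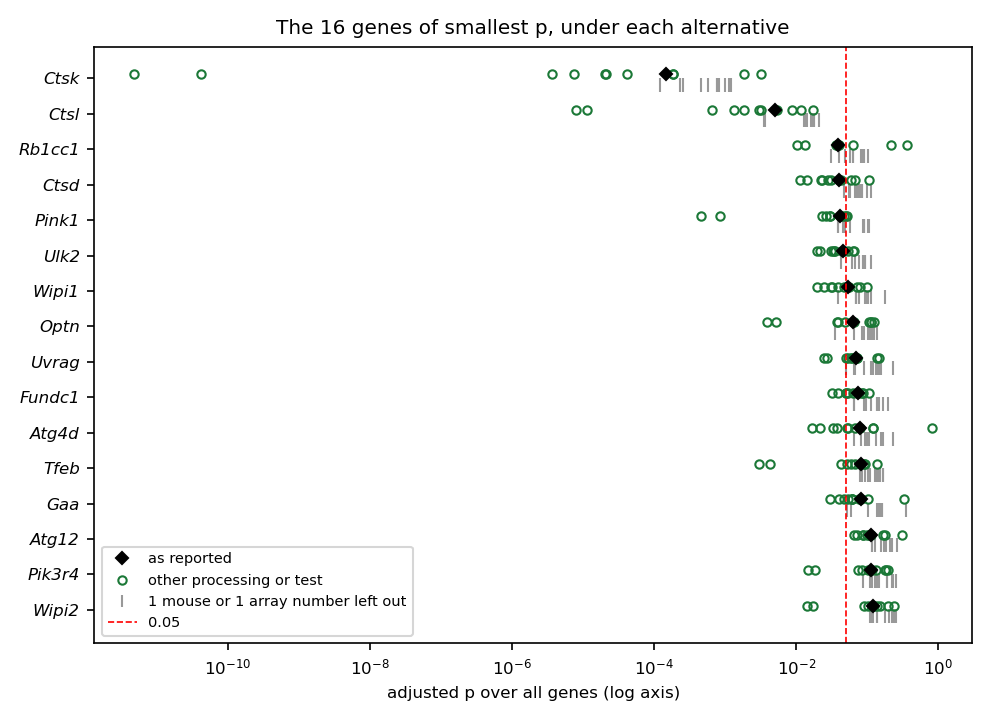
Adjusted p over all genes (log axis) of the 16 genes with the smallest p, with the fit as described as a black diamond, other processing or tests as green circles, fits without a mouse or an array number as grey ticks and a dashed line at 0.05. Ctsk and Ctsl stay below 0.05 throughout, while Rb1cc1, Ctsd, Pink1 and Ulk2 have values on both sides.

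The initiation machinery held 2 of the 4 genes that fell, among 9 measured genes (22.2%, beside 9.65% of all genes). Its median log2 fold change was −0.16, beside −0.14 for all genes. After quantile normalization the median was −0.11, beside −0.02 for all genes, and none of the 9 was called. Ulk2 encodes a kinase that, with its close relative ULK1, switches on autophagosome formation. Its intensity was 12700, 12024, 12397 and 11893 in control mice and 9069, 9715, 9800 and 10949 in Hira CKO mice. Every Hira CKO mouse was below every control mouse, and Hira CKO mouse 4 came nearest to the controls. The means were 12253 ± 366.3 and 9883 ± 781.8 (SD, n = 4 each), and the log2 fold change was −0.31 (SE 0.09, limma adjusted p = 0.0449). The call held in 8 of 11 other ways of processing, with adjusted p between 0.0197 and 0.0650. These ways overlap, for this and every other gene, since all refit the same arrays, and they are not independent tests. With 1 of the 8 mice left out, the call held only without Hira CKO mouse 4. Ulk1 overlapped between the groups, at −0.10 with a 95% interval of −0.36 to 0.15. The difference between Ulk1 and Ulk2 was not tested.

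Rb1cc1 encodes FIP200, the scaffold that holds the ULK kinase complex together. Its probe was dim, with intensities of 160.6, 167.5, 165.5 and 131 in control mice and 102.9, 102, 119.2 and 129.3 in Hira CKO mice. The groups were separated only by the gap between control mouse 4 and Hira CKO mouse 4. The means were 156.2 ± 17.01 and 113.4 ± 13.25 (SD, n = 4 each), with a log2 fold change of −0.46 (SE 0.12, limma adjusted p = 0.0381). The fold change became −0.29 after quantile normalization, with an adjusted p of 0.218, and over the 10 other ways of processing that kept this probe the adjusted p lay between 0.0103 and 0.358. Without single mice it was called in 3 of 8 fits, those without control mouse 4, Hira CKO mouse 1 or Hira CKO mouse 4.

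Wipi1 encodes a protein that binds the phosphoinositide made by the lipid kinase complex on the growing membrane. It had the most negative log2 fold change of the 44 genes, −0.51 (SE 0.15), but did not pass the test at an adjusted p of 0.0537 from limma. The intensities were 13629, 9228, 8984 and 11524 in control mice and 6461, 8508, 7650 and 7465 in Hira CKO mice. The groups did not overlap, and the controls were spread widely, with mouse 1 well above mice 2 and 3. Wipi1 was called lower in 6 of 11 other ways of processing, with adjusted p between 0.0194 and 0.0994, and in none of the 8 fits that left out a mouse. The 5 remaining genes of this step did not pass. Wipi2, a relative of Wipi1, was at −0.29, the lipid transfer genes Atg2a and Atg2b at −0.16 and −0.06, the membrane protein gene Atg9a at −0.07 and the ULK complex subunit gene Atg13 at 0.22. A second Atg13 probe was at 0.20.

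None of the 6 genes of the lipid kinase complexes passed the test, and their median log2 fold change was −0.27. Uvrag encodes the subunit of the complex that works at endosomes and in the maturation of autophagosomes. It had 6677, 6846, 6691 and 5779 in control mice and 5711, 4742, 5370 and 5392 in Hira CKO mice. The groups were separated, with control mouse 4 close to Hira CKO mouse 1, and the log2 fold change was −0.29 (SE 0.10, limma adjusted p = 0.0692). Pik3r4, the gene of the regulatory subunit VPS15, had 7226, 5093, 7725 and 5230 in control mice and 5221, 4429, 5203 and 3472 in Hira CKO mice. Its control mice formed a higher pair and a lower pair, the lower of which overlapped Hira CKO mice, and the log2 fold change of −0.46 had an SE of 0.19 (adjusted p = 0.114). The catalytic subunit gene Pik3c3 was at −0.24, the autophagy-specific subunit gene Atg14 at −0.29, Becn1 itself at 0.10 with an interval of −0.07 to 0.28, and Ambra1, whose product regulates Beclin 1, at 0.18.

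The conjugation machinery, the enzyme chain that couples ATG8 proteins to the membrane, held 10 measured genes, and none passed the test. Their log2 fold changes ran from −0.24 to 0.38 with a median of −0.17. Atg4d encodes one of the proteases that trim ATG8 proteins and release them again. At its brighter probe it had 7815, 7615, 10499 and 8750 in control mice and 11510, 10205, 10255 and 13053 in Hira CKO mice. Only control mouse 3 reached into the Hira CKO range, and the log2 fold change was 0.38 (SE 0.13, limma adjusted p = 0.0783), with an adjusted p of 0.0324 after quantile normalization. The dimmer Atg4d probe pointed the other way, with 1563, 2220, 1714 and 2444 in control mice and 1121, 2315, 1232 and 1219 in Hira CKO mice. Only Hira CKO mouse 2 lay among its controls, and the probe was at −0.47 (adjusted p = 0.192 with every probe tested). When both probes were averaged, the log2 fold change of Atg4d was −0.05, and over the 11 other ways of processing its adjusted p ran from 0.0165 to 0.817.

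Atg12, the gene of the ubiquitin-like protein that is joined to ATG5, had 8833, 7281, 7666 and 7774 in control mice and 6311, 6229, 6918 and 7254 in Hira CKO mice. The groups were only just separated, between control mouse 2 and Hira CKO mouse 4. The log2 fold change was −0.24 (SE 0.10, limma adjusted p = 0.112), and the second probe was at −0.13. Its partners Atg5 and Atg16l1 were at −0.05 and −0.19, the activating enzyme gene Atg7 at −0.08, and the transfer enzyme genes Atg3 and Atg10 at −0.19 and −0.18. The further ATG8 protease genes Atg4a, Atg4b and Atg4c were at −0.16, −0.18 and 0.02.

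The 4 measured genes of the ATG8 family, whose products sit in the autophagosome membrane and bind cargo receptors, showed no change past the test. Map1lc3a had 89117, 77984, 94939 and 99956 in control mice and 98799, 106138, 95889 and 113844 in Hira CKO mice. The groups overlapped, at a log2 fold change of 0.20 (SE 0.11, limma adjusted p = 0.201). Gabarap had 30373, 27301, 27969 and 29015 in control mice and 30062, 29206, 22704 and 22981 in Hira CKO mice. The Hira CKO mice were split, with mice 1 and 2 among the controls and mice 3 and 4 below them, and the log2 fold change was −0.14 (adjusted p = 0.414). Map1lc3b was at 0.02 with a 95% interval of −0.18 to 0.21, and Gabarapl1 at −0.06 with an interval of −0.31 to 0.20.

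Of the 5 measured genes for cargo receptors and mitophagy, 1 fell (20%, beside 9.65% of all genes). The median log2 fold change was −0.36, beside −0.14 for all genes, and −0.29 beside −0.02 after quantile normalization. Pink1 encodes the kinase that accumulates on damaged mitochondria and marks them for removal. Its intensity was 41717, 35084, 40138 and 41037 in control mice and 30317, 28652, 28760 and 34505 in Hira CKO mice. The groups did not overlap, although control mouse 2 and Hira CKO mouse 4 were close. The means were 39494 ± 3010 and 30558 ± 2739 (SD, n = 4 each), with a log2 fold change of −0.37 (SE 0.10, 95% interval −0.60 to −0.14, limma adjusted p = 0.0413). Among the genes that fell, Pink1 was the only one also called after both other normalizations, with an adjusted p of 0.0297 after quantile normalization. It held in 10 of 11 other ways of processing, with adjusted p between 0.000452 and 0.0511. With single mice left out it held in 3 of 8 fits, those without control mouse 2, Hira CKO mouse 1 or Hira CKO mouse 4.

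In this group, the mitophagy receptor genes Optn and Fundc1 had lower means without passing the test. Optn encodes optineurin, a receptor that PINK1 recruits to mitochondria, and had 7849, 6534, 6525 and 6073 in control mice and 4511, 6181, 4890 and 3692 in Hira CKO mice. Hira CKO mouse 2 lay just above control mouse 4 and the other three Hira CKO mice lay below all controls, at a log2 fold change of −0.50 (SE 0.16, limma adjusted p = 0.0626). Fundc1, the gene of a receptor in the outer mitochondrial membrane, had 10296, 9025, 10800 and 10414 in control mice and 6708, 7362, 9204 and 8579 in Hira CKO mice. Hira CKO mouse 3 overlapped control mouse 2, and the log2 fold change was −0.36 (adjusted p = 0.0739). The receptors of protein aggregates were at −0.01 for Sqstm1, with an interval of −0.37 to 0.36, and at 0.16 for Nbr1.

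The lysosome group of 10 measured genes was the only one that held genes that rose, with a median log2 fold change of 0.14. In it 2 rose (20%, beside 4.94% of all genes) and 1 fell (10%, beside 9.65%). Ctsk encodes cathepsin K, a collagen-degrading cysteine protease best known from osteoclasts. Its intensity was 1433, 1385, 1548 and 1217 in control mice and 4736, 4496, 6513 and 5187 in Hira CKO mice. Each Hira CKO mouse was far above each control mouse, and single arrays were apart as well, with a highest value of 1613 in control and a lowest of 3815 in Hira CKO mice. The means were 1396 ± 137.3 and 5233 ± 900.3 (SD, n = 4 each), 3.72-fold higher (95% interval 3.01 to 4.60), with a log2 fold change of 1.90 (SE 0.13, limma adjusted p = 0.000147). It ranked 52 among all 17742 genes by size of rise. Ctsk was called in all 11 other ways of processing and in all 8 fits without a mouse, where the adjusted p stayed between 0.000234 and 0.00119.

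Ctsl encodes cathepsin L, a cysteine protease found in most lysosomes, whose loss in mice causes dilated cardiomyopathy. Its intensity was 41064, 45425, 45151 and 45988 in control mice and 62884, 79987, 71951 and 67860 in Hira CKO mice. The control mice lay within a narrow range, and every Hira CKO mouse was well above it. The means were 44407 ± 2256 and 70670 ± 7233 (SD, n = 4 each), 1.59-fold higher (95% interval 1.36 to 1.85), with a log2 fold change of 0.67 (SE 0.10, limma adjusted p = 0.00504). The second Ctsl probe was much dimmer, with 670.8, 738.2, 765.2 and 735.2 in control mice and 906.5, 876.2, 840.9 and 1001 in Hira CKO mice. It was separated in the same direction with a smaller log2 fold change of 0.32 (SE 0.09, limma adjusted p = 0.0504 with every probe tested, where 4.53% of all probes were called higher and 9.65% lower). At the brighter probe the call held in all 11 other ways of processing and all 8 fits without a mouse.

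Ctsd, the gene of the aspartic protease cathepsin D, fell while Ctsk and Ctsl rose. Its intensity was 77270, 69641, 81557 and 72370 in control mice and 59663, 61863, 60152 and 60282 in Hira CKO mice. The 4 Hira CKO mice were nearly alike and all were below the lowest control. The means were 75210 ± 5279 and 60490 ± 953.2 (SD, n = 4 each), with a log2 fold change of −0.31 (SE 0.08, limma adjusted p = 0.0404). The call was lost after quantile normalization (adjusted p = 0.0669) and held in 8 of 11 other ways of processing, with adjusted p between 0.0114 and 0.106. These ways overlap as they do for Ulk2. With single mice left out the call held only without Hira CKO mouse 1.

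**Figure D4:**
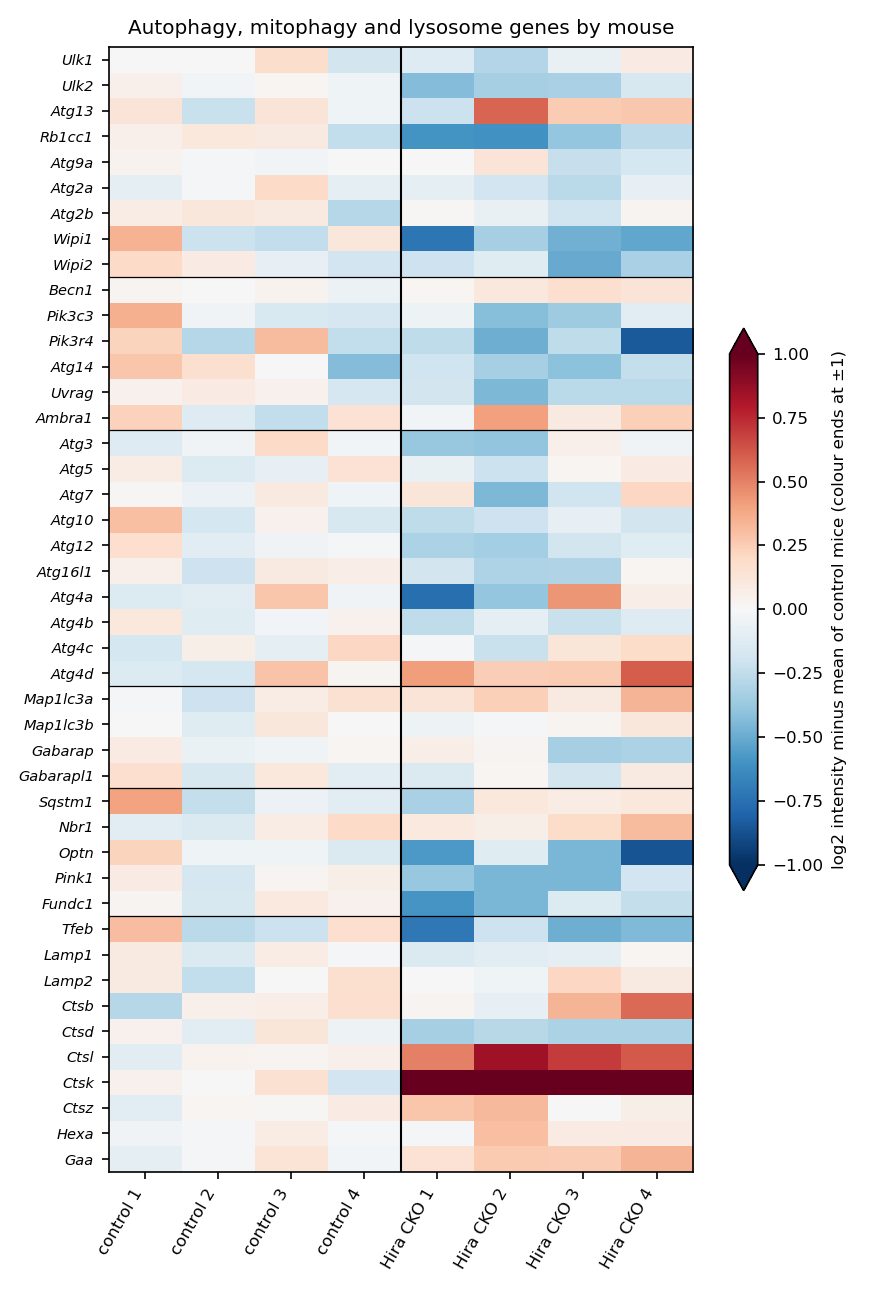
Each mouse's log2 difference from the control mean for the 44 measured genes, 1 row for each gene ordered by role, with control mice on the left and Hira CKO mice on the right. Ctsk and Ctsl are above the control mean in all 4 Hira CKO mice, and the median over the 44 genes in a Hira CKO mouse ran from −0.14 in mouse 1 to 0.03 in mouse 4.

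The 7 other lysosomal genes did not pass the test. Gaa, the gene of the glycogen-degrading enzyme acid α-glucosidase, had 29855, 31370, 35007 and 31262 in control mice and 35255, 38080, 37919 and 40298 in Hira CKO mice. The groups did not overlap, with control mouse 3 just below Hira CKO mouse 1, and the log2 fold change was 0.25 (SE 0.09, limma adjusted p = 0.0809). Gaa had an adjusted p of 0.0403 after quantile normalization, in a range of 0.0299 to 0.326 over the 11 other ways of processing, and its second probe was at 0.03. Tfeb encodes a transcription factor that switches on lysosome and autophagy genes, and had 1581, 1061, 1099 and 1437 in control mice and 776.0, 1106, 910.1 and 941.8 in Hira CKO mice. Hira CKO mouse 2 lay among the controls, and the log2 fold change was −0.46 (SE 0.16, adjusted p = 0.0807). The membrane protein genes Lamp1 and Lamp2 were at −0.08 and 0.06, with intervals of −0.28 to 0.12 and −0.19 to 0.31. The cysteine protease genes Ctsb and Ctsz were at 0.21 and 0.16 and Hexa, a subunit gene of a ganglioside-degrading enzyme, at 0.11, while a dimmer Ctsb probe was at −0.15.

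The mice differed in how far the 44 genes lay from the control mean. In Hira CKO mice 1, 2, 3 and 4, 32, 29, 26 and 20 of the 44 genes were below it, and the median differences were −0.14, −0.12, −0.11 and 0.03 on the log2 scale. In control mice 1, 2, 3 and 4 the medians were 0.05, −0.09, 0.06 and −0.02. Hira CKO mouse 4 therefore lay within the range of the controls and control mouse 2 close to the other Hira CKO mice, so the medians of the groups overlapped.

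TFEB and its relatives TFE3 and MITF bind the letters CACGTG, the core of a motif that is common near lysosome genes. The promoters of the protease genes with the clearest rise and with a fall are shown as examples with and without these letters, a pair chosen after the matches were seen. They are RefSeq windows of GRCm38.p6, 250 bases before to 50 after the annotated start, printed 5′ to 3′ on the strand of the gene, with CACGTG in capitals.
Ctsd, chr7:142387778-142388077, minus strand: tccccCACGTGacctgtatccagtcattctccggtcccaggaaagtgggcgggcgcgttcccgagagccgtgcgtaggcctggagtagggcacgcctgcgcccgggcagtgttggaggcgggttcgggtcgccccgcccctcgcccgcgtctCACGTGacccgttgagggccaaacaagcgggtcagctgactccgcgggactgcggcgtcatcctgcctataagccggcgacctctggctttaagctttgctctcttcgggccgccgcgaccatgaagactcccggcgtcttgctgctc
Ctsk, chr3:95498960-95499259, plus strand: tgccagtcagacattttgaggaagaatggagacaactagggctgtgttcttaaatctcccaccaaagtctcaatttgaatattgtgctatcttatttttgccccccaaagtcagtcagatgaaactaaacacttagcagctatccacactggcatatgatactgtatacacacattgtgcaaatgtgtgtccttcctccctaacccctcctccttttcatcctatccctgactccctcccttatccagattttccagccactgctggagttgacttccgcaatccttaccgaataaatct

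The Ctsd window held CACGTG at −245 and −98 relative to the start, and the Ctsk window held none. The windows of Pink1 and Ulk2, which fell, held none either, and Rb1cc1, which also fell, had no window. Ctsl had 1 match, but the gene record reaches beyond the start used for its window, which is not shown. Of the 37 genes of the list with a window, 8 held CACGTG (Atg14, Atg3, Atg5, Atg7, Ctsd, Ctsl, Gaa and Lamp1), beside 9.95% of the 13980 array genes with a window and 7.15% of all 32851 windows. TCACGTG, or CACGTGA on the other strand, stood in 6 of the 37 (all but Atg5 and Ctsl of the same genes), beside 5.57% of array genes and 3.77% of all windows. CACGTG with GT before it and AC after it was in 0 of the 37, beside 0.544% of array genes and 0.326% of all windows. The longer forms contain the shorter, all were searched on both strands, and a match is a run of letters and not a measured binding site.

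A wider set of 176 genes, 163 of them with a probe, was read from the same fit to place these results in the pathway. Among them 6 rose (3.68%) and 11 fell (6.75%), both shares below those of all genes. After quantile normalization 8 rose and 6 fell, where 7.05% and 5.48% of all genes did. The list of mTORC1 and AMPK genes, whose products restrain or start autophagy according to nutrients and energy, held 4 of the 6 that rose, among 31 measured (12.9%, beside 4.94% of all genes). The list was assembled with earlier results of these data known.

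Prkag2 encodes the γ2 regulatory subunit of AMPK, in which inherited variants cause a glycogen storage cardiomyopathy. It had 2889, 2433, 2890 and 2933 in control mice and 6317, 5848, 6627 and 7831 in Hira CKO mice. The lowest Hira CKO mouse was far above the highest control, and the log2 fold change was 1.25 (SE 0.12, limma adjusted p = 0.000581). Rragd, the gene of a Rag GTPase that recruits mTORC1 to the lysosome, had 19558, 24032, 25472 and 23410 in control mice and 39476, 37483, 32227 and 38296 in Hira CKO mice. The groups were clearly apart, at 0.68 (SE 0.11, adjusted p = 0.00805). A further Rag gene, Rragb, rose by 0.51 (adjusted p = 0.0447), and Rheb, whose product activates mTORC1, by 0.40 (adjusted p = 0.0496). Neither of these 2 passed in the methods' t-test on mice, with adjusted p of 0.0818 and 0.0736.

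Sort1 encodes sortilin, a receptor that carries proteins from the Golgi to lysosomes, and was the clearest rise among lysosomal membrane and sorting genes. It had 12568, 15518, 16532 and 11246 in control mice and 30259, 28378, 26697 and 30400 in Hira CKO mice. All Hira CKO mice were far above all controls, at a log2 fold change of 1.07 (SE 0.13, limma adjusted p = 0.0024). In the same list of 26 measured genes 4 fell (15.4%, beside 9.65% of all genes). After quantile normalization 2 were lower, where 5.48% of all genes were. The 4 were Hgsnat, which encodes an enzyme of heparan sulfate breakdown (−0.39, adjusted p = 0.0237), Npc1, which encodes a cholesterol exporter (−0.51, adjusted p = 0.0411), Psap, which encodes the precursor of the saposins (−0.44, adjusted p = 0.0443) and was named after its values were seen, and the dim Cd63 (−0.72, adjusted p = 0.0282). After quantile normalization Cd63 was at −0.03 (adjusted p = 0.91), while Hgsnat was at −0.33 (adjusted p = 0.0574). In the methods' t-test on mice Npc1, Psap and Cd63 did not pass, with adjusted p of 0.0746, 0.0722 and 0.0649.

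Among 34 further hydrolase genes 1 rose (2.94%, beside 4.94% of all genes) and 2 fell (5.88%, beside 9.65%). Gusb (β-glucuronidase) rose by 0.39 (adjusted p = 0.0299 from limma). Pla2g15, a lysosomal phospholipase gene, fell by 0.43 (adjusted p = 0.0357), and the dim cysteine protease gene Ctso fell by 0.36 (adjusted p = 0.0494, and 0.376 after quantile normalization). Neither Pla2g15 nor Ctso passed in the methods' t-test on mice, with adjusted p of 0.0527 and 0.0605. Of 16 subunit genes of the proton pump that acidifies lysosomes, none passed the test, and the 2 with the smallest p were Atp6v0a2 at −0.31 (adjusted p = 0.0716) and Tcirg1 at 0.18 (adjusted p = 0.321). The list of 8 transcription factor genes held 2 that fell (25%, beside 9.65% of all genes), Tfe3 at −0.29 (adjusted p = 0.0472) and the dim Foxo4 at −0.79 (adjusted p = 0.0125). After quantile normalization neither passed, with Tfe3 at −0.26 (adjusted p = 0.102) and Foxo4 at −0.31 (adjusted p = 0.203).

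Of 23 further mitophagy genes, 19 had log2 fold changes below 0, where the median of all genes was itself below 0. Their median was −0.18, beside −0.14 for all genes, and −0.11 beside −0.02 after quantile normalization. The single gene that fell (4.35%, beside 9.65% of all genes) was Bcl2l13, which encodes a receptor on the outer mitochondrial membrane. It had 17243, 12911, 15262 and 15318 in control mice and 9796, 11456, 11087 and 11038 in Hira CKO mice. The groups did not overlap, at −0.48 (SE 0.11, limma adjusted p = 0.0245). Among 25 further autophagy genes 2 fell (8%, beside 9.65% of all genes). They were Tmem41b, whose product moves lipids at the site where autophagosomes form (−0.52, adjusted p = 0.0101), and Sh3glb1, which encodes a membrane-bending partner of UVRAG (−0.39, adjusted p = 0.0289). Bcl2l13, Tmem41b and Sh3glb1 were called after quantile and cyclic loess normalization as well.

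**Figure D5:**
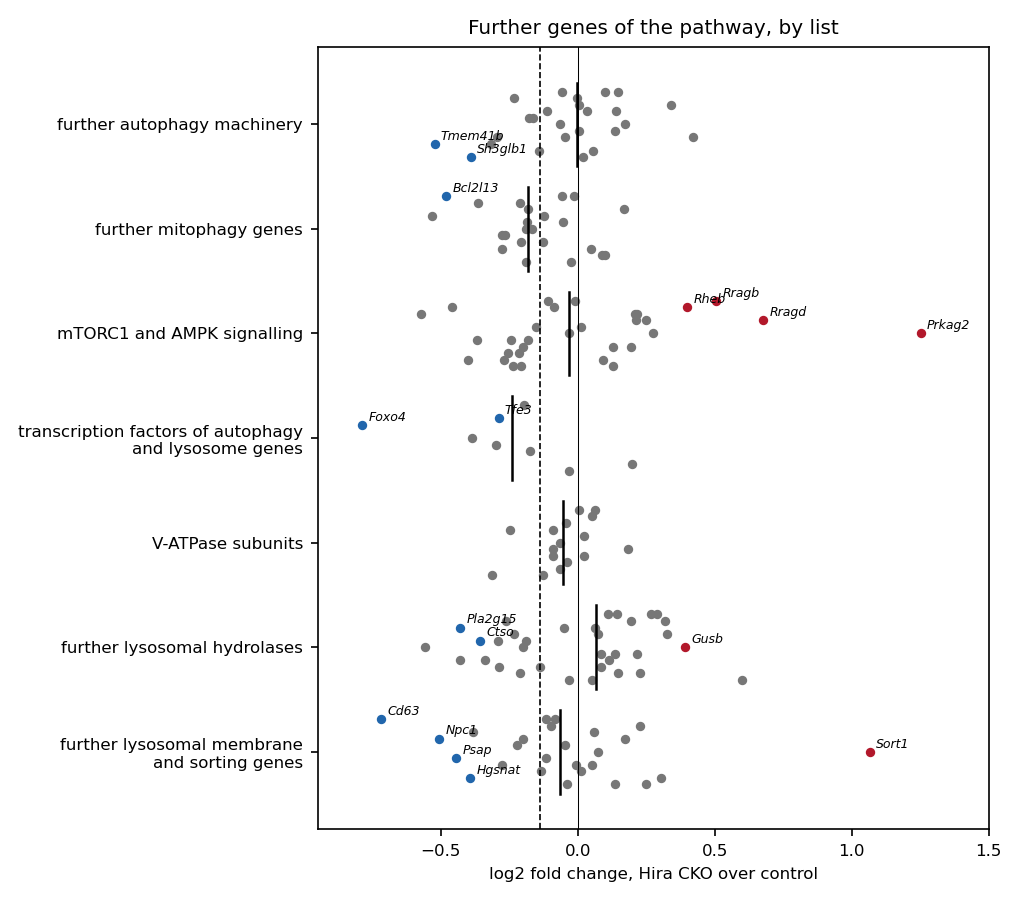
Log2 fold change of Hira CKO over control for the 163 measured genes of the 7 wider lists, 1 point for each gene, coloured red where it rose and blue where it fell, with a short line at each list's median and the dashed line at the median of all genes (−0.14). Prkag2 at 1.25 and Sort1 at 1.07 lie farthest above 0, and mTORC1 and AMPK genes hold 4 of the 6 that rose.

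Cathepsins are abundant in macrophages, and cathepsin K is made by osteoclasts and some fibroblasts, so markers of other cells stand beside the rises of Ctsk and Ctsl. Of 12 macrophage markers with a probe, 1 rose (8.33%, beside 4.94% of all genes) and 11 had log2 fold changes below 0. Their median was −0.21, beside −0.14 for all genes, and −0.16 beside −0.02 after quantile normalization. The one was Cd68, itself a lysosomal membrane protein gene, with 1415, 1463, 1929 and 1894 in control mice and 2089, 3044, 3108 and 2653 in Hira CKO mice. These groups did not overlap, at 0.70 (SE 0.16, limma adjusted p = 0.0272), and Cd68 did not pass in the methods' t-test on mice (adjusted p = 0.0623). The summed level of the 12 markers was 75674 to 119287 in control and 61978 to 105612 in Hira CKO mice, and defining markers such as Adgre1, Csf1r and C1qa were above the floor in every array. None of 9 fibroblast markers passed the test, and 3 (Col1a2, Postn and Col1a1) had an unadjusted p under 0.05. Col1a2 was at 0.51 (adjusted p = 0.106), Postn at 0.49 (adjusted p = 0.0918) and Col3a1 at 0.47 (adjusted p = 0.281), while Col1a1 was at −0.52 (adjusted p = 0.107). Their sums of 260512 to 279317 in control and 250187 to 303666 in Hira CKO mice overlapped, and were mostly Dcn, at 0.01.

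None of 8 endothelial or 4 lymphocyte markers passed. Among 6 smooth muscle and pericyte markers Acta2 alone rose (16.7%, beside 4.94% of all genes), by 0.87 (adjusted p = 0.0166 from limma). By immunofluorescence the authors found its product, smooth-muscle α-actin, in Hira CKO cardiomyocytes, so Acta2 is not specific to smooth muscle in these hearts. The other 5 had log2 fold changes below 0 without passing. Tagln was at −0.48, Cnn1 at −0.85, Rgs5 at −0.38, Pdgfrb at −0.19 and Cspg4 at −0.30, with a median of −0.34 over the 6. The summed level was 108305 to 148286 in control and 163563 to 230512 in Hira CKO mice, most of it Acta2, whose mean was 87813 in control and 160728 in Hira CKO mice. The erythroid list had a probe only for Alas2, which ranged from 325.9 to 4777 among Hira CKO mice. The part of these cells in the results above was not tested.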

How the data were processed

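The authors hybridised RNA of each mouse to 3 single-colour MouseOne Array Plus arrays and deposited median-scaled linear intensity values per probe. How background was corrected was not given in the sources used here. Probes were named from the platform annotation, with symbols updated through RefSeq (18213 current, 2126 through a synonym, 38 as given). Values under 1 were raised to 1 (between 0 and 2535 of 26423 probes on an array), log2-transformed, and the 3 arrays of a mouse averaged. The brightest probe stood for a gene, and 1 gene of the list is not reported here. Hira CKO and control mice were compared with limma (version 3.58.1, R 4.3.3) over 17742 genes, with Benjamini-Hochberg adjustment and a threshold of 0.05. The number of mice limits the precision, and standard errors over mice for the genes listed were 0.08 to 0.24. The fit was tested on simulated data. Tables and plots used Python 3.11.15, pandas 2.3.3 and matplotlib 3.10.9.

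The labels do not name litters or arrays processed together. Values for each mouse are given for genes past the test and for the 2 with the smallest p in a role group without one, and from each wider list up to 4 genes past the test are named, or the 2 with the smallest p. Wipi1, Optn, Fundc1, Gaa and Tfeb were added after their values were seen. The members and lists were chosen with earlier results of these data known. Alternatives covered the normalization, the floor, dim probes, the probe for a gene, the prior, the test, the replicate unit, blocks, single mice, single array numbers and the threshold.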

Additional observations from a re-analysis of the deposited data

Results flagged for a closer look

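In 88 groups of 4 mice (44 genes, 2 groups each), 5 held 1 mouse far from the other 3, by the gap to its nearest neighbour over the whole range, where chance alone flags about 1 in 20 groups. Control mouse 4 was low in Atg2b, at 1600 beside 2058 to 2113 in the other controls, and in Uvrag, at 5779 beside 6677 to 6846. Control mouse 2 was low in Atg16l1, at 6324 beside 7584 to 7761. Control mouse 1 was low in Ctsl, at 41064 beside 45151 to 45988. Hira CKO mouse 1 was low in Sqstm1, at 22905 beside 30110 to 30842 in the other Hira CKO mice.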

How the results depend on the processing

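Against 2 genes higher and 4 lower as described, quantile normalization gave 4 and 1, cyclic loess normalization 4 and 1, an offset of 50 before log2 gave 7 lower (all genes 13.4%, beside 9.65% as described), and the 24 arrays with the mouse as a random block gave 3 higher and 11 lower (all genes 8.2% and 13.6%). With the array number as a replicate block and the mouse as a random block, 4 were higher and 11 lower (all genes 7.98% and 13.0%). Deviations of arrays of the same number in different mice had a median correlation of −0.04, beside 0.03 for different numbers. A median over all pairs cannot show whether some arrays were processed together, and this was not tested. An adjusted p under 0.10 gave 4 and 9, and one under 0.01 gave 2 and 0. The shares of all genes at these thresholds are not given here, so these counts cannot be set beside them. With a mouse left out, 2 stayed higher (all genes 2.45% to 5.16%) and 0 to 3 were lower (all genes 2.84% to 20.1%). With an array number left out, 2 stayed higher (all genes 2.71% to 3.8%) and 0 to 1 were lower (all genes 3.36% to 7.63%). Pairing mice of neighbouring numbers, which the labels do not call littermates, gave 2 and 3 (all genes 4.68% and 11.1%). It kept Rb1cc1, lost Ctsd, Pink1 and Ulk2 (adjusted p 0.0511 to 0.0583) and added Tfeb (0.0430) and Wipi1 (0.0464). Deviations from the group means correlated at 0.25 for control mouse 4 with Hira CKO mouse 2 and at 0.24 for control mouse 1 with Hira CKO mouse 4. They were at −0.02 for control mouse 2 with Hira CKO mouse 1 and at 0.04 for control mouse 3 with Hira CKO mouse 3. The cause of these shifts was not tested. The list's median log2 fold change lay between −0.15 and −0.05 under every setting run. Ctsk and Ctsl were called under all of them. Lower calls were weak: all 4 genes that fell had adjusted p between 0.0381 and 0.0449, and no other probe measured them. The calls of the dim Rb1cc1 and of the bright Ctsd and Ulk2 were lost after quantile and cyclic loess normalization.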
